A study of Rattus norvegicus with 2 samples.

Results

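Metalloproteinases and their inhibitors were followed in rat myometrial progenitor cells, cultured precursors of uterine smooth muscle. The genes were taken by symbol, with earlier results of these data known. They were matrix metalloproteinases (MMP), tissue inhibitors of metalloproteinases (TIMP) and a disintegrin and metalloproteinase genes (ADAM). ADAM genes with thrombospondin motifs (ADAMTS) and their ADAMTS-like relatives (ADAMTSL) were also taken. This gave 61 of the 17327 genes in the deposited table: 21 MMP, 4 TIMP, 20 ADAM and 16 ADAMTS or ADAMTSL genes. Family genes under other symbols or with no row were not analysed here.

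RNA was sequenced from VEH-exposed and from DES-exposed cells, where the abbreviations commonly mean vehicle and diethylstilbestrol, a synthetic estrogen, in studies of developmental exposure. A group had 1 library, from pooled cells of 5 animals, and both were cultured cells of the myometrium at passages 1 to 3. The sources used here do not give strain, age, dose or time of exposure. The comparison asks how expression differs between exposed and unexposed cells. Which group forms the numerator of the table's fold change is not stated. The libraries are therefore named by numerator and denominator, and higher or lower here never means higher or lower after DES.

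MMPs are zinc-dependent enzymes that cut collagens and other matrix proteins, and TIMPs bind and block them. ADAMs are mostly membrane proteins, several of which release growth factors and receptors from the cell surface. ADAMTS enzymes are secreted and trim proteoglycans, procollagens and other matrix proteins, while ADAMTSL proteins lack the protease part. In the uterus these families take part in remodelling of the matrix through the cycle, pregnancy and involution. Uterine fibroids are matrix-rich tumours of the myometrium.

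The reads of each library were recovered from the table's means. The numerator library held 106599579 reads in the listed genes and the denominator library 104793348. Folds are ratios of reads divided by the size factors, with a 95% exact counting interval. A gene counted as higher or lower when its log2 ratio, with a pseudocount of 1 normalised read, reached 2-fold, its mean was at least 20 normalised reads and the interval excluded 1. With 1 library a group no test was possible, and intervals cover counting error only, not the spread between animals or cultures. In bulk RNA, fewer cells of a type and less RNA per cell cannot be told apart. All 7 smooth muscle markers examined were above the minimum, and 2 of them were higher in the numerator library (Tagln and Actg2, named after their values were seen). Of the epithelial markers, Cdh1 was listed at 0 and Epcam had 0 and 7 reads (numerator library first). The keratin markers did have reads: Krt8 2473 and 1431, Krt18 553 and 61 (higher), and Krt19 11 and 55 (lower). The 6 neutrophil markers together had 9 reads against 5 (numerator library first), with S100a9, Mpo and Elane listed at 0. Of the mesenchymal progenitor markers compared, 4 of 8 were higher and 2 lower, of the fibroblast markers 2 of 5 were higher and 2 lower, and of the epithelial markers 1 of 3 was higher and 1 lower.

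Of the 61 genes, 11 were listed at 0, 9 had reads but a mean below 20, and 41 could be compared. Among these 41 genes, 12 lay at least 2-fold up in the numerator library and 10 at least 2-fold down. Over all 11212 genes compared, 13.9% were higher and 12.7% lower by the same rule, against 29.3% and 24.4% of the 41. The share beyond 2-fold either way was 53.7% here and 26.7% over all genes. The differences ran both ways, so the median log2 ratio of the 41 genes was 0.14, beside 0.01 over all genes. The median size of the log2 ratio, whatever its sign, was 1.05, beside 0.52 over all genes.

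**Figure D1:**
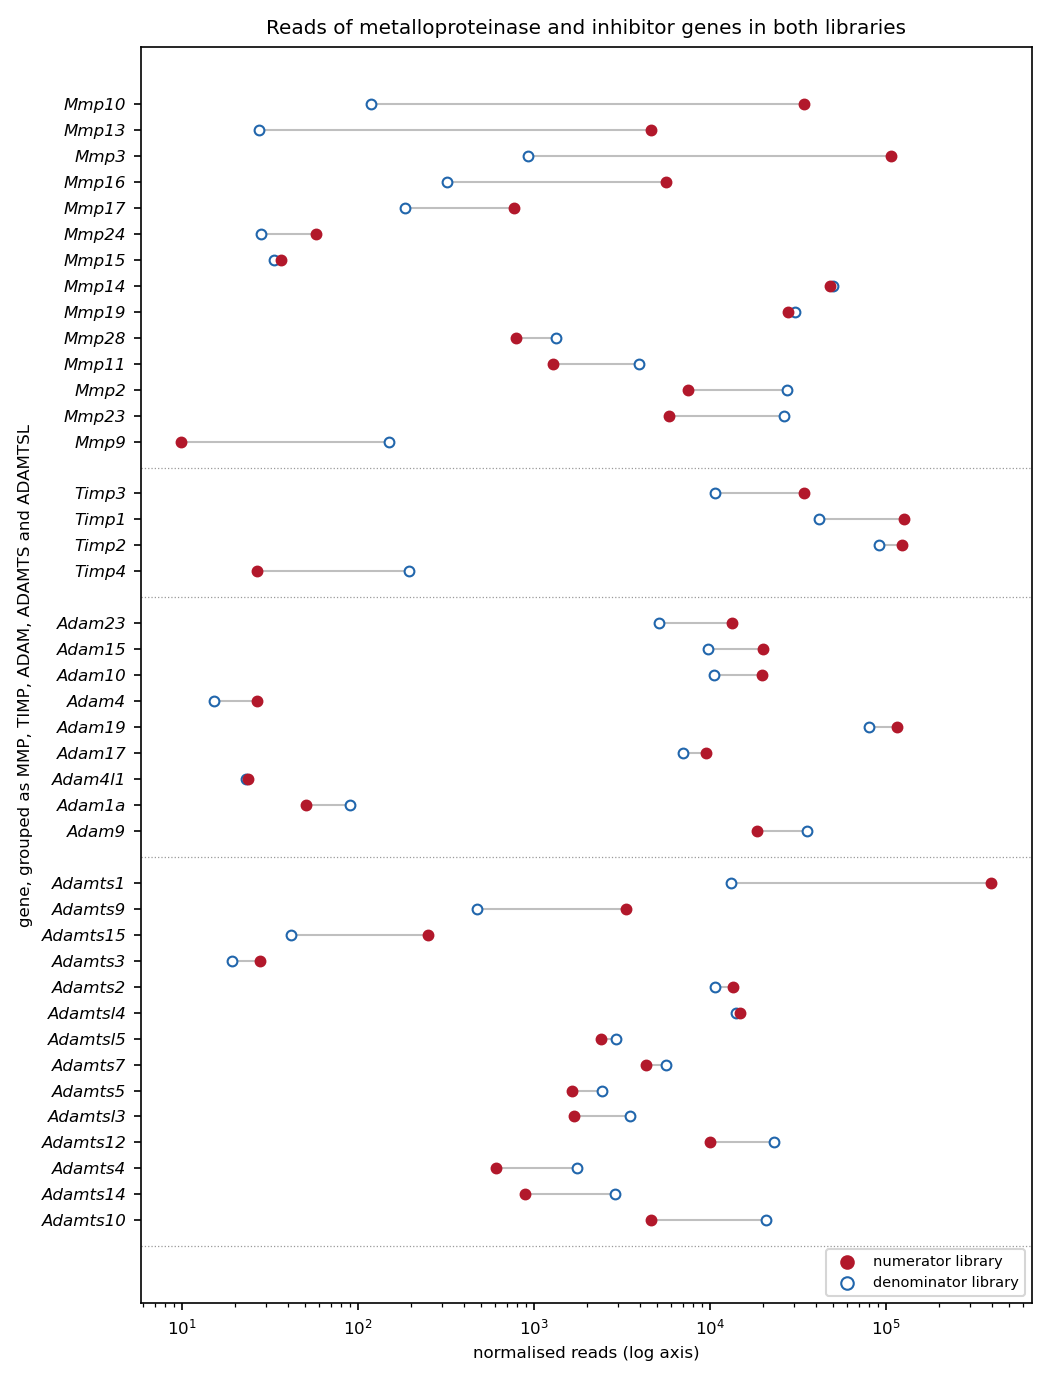
Normalised reads (log axis) of the 41 genes with a mean of at least 20, in the numerator library (filled) and the denominator library (open), ordered by ratio within the MMP, TIMP, ADAM and ADAMTS classes. The widest gaps are those of Mmp10, Mmp13, Mmp3, Adamts1 and Mmp16, all with more reads in the numerator library.

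The classes differed in how far their members spread. Of 14 MMP genes compared, 5 were higher and 4 lower, with log2 ratios from -3.79 to 8.14 and a median of 0.04. Of 4 TIMP genes, 2 were higher and 1 lower, with a median of 1.02. Of 9 ADAM genes, 2 were higher and 0 lower, with ratios from -0.94 to 1.38 and a median of 0.52. Of 14 ADAMTS and ADAMTSL genes, 3 were higher and 5 lower, with ratios from -2.17 to 4.91 and a median of -0.32. At 4-fold or more, 8 of the 41 genes were higher (7.47% over all genes) and 4 lower (5.11% over all genes). At 8-fold or more, 5 of the 41 genes were higher (5.12% over all genes) and 1 was lower (2.54% over all genes). The 5 were Mmp3, Mmp10, Mmp13, Mmp16 and Adamts1, and the lower gene was Mmp9. No difference between classes was tested.

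**Figure D2:**
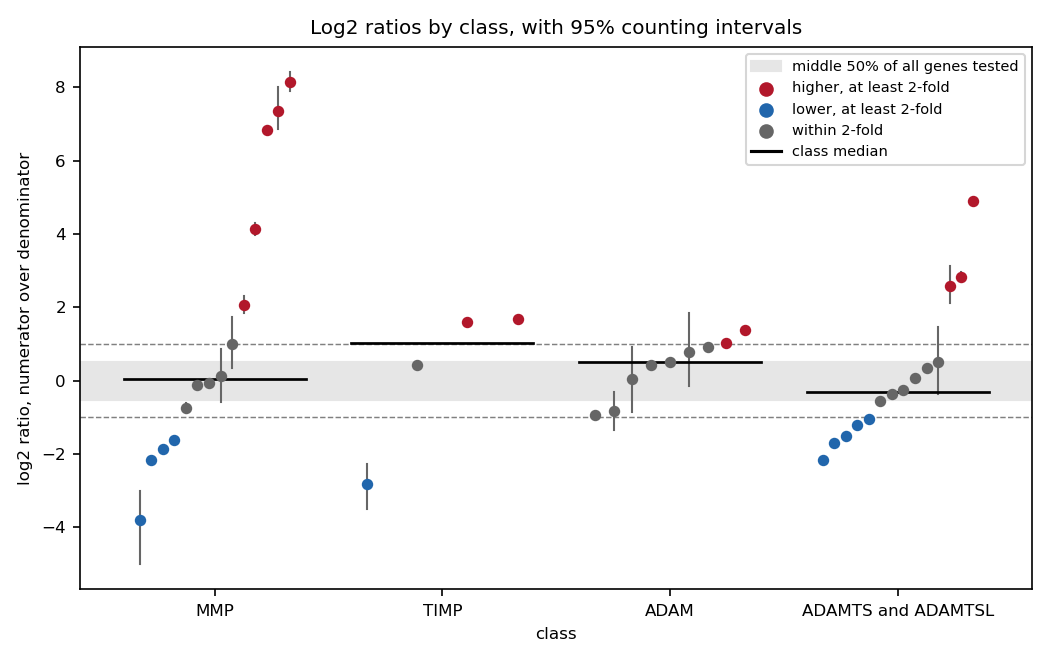
Log2 ratio of the numerator over the denominator library for each of the 41 genes, by class, with a pseudocount of 1 for the points and 95% counting intervals without one as bars. Dashed lines mark 2-fold, the grey band holds the middle 50% of all genes compared, and black lines are class medians. MMP genes span from -3.79 to 8.14, whereas ADAM genes lie between -0.94 and 1.38.

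The 3 largest differences of all 61 genes lay in 1 gene cluster. In the annotation of the rat genome build GRCr8, chromosome 8 holds 10 neighbouring Mmp genes in the order Mmp13, Mmp12, Mmp1b, Mmp3, Mmp1, Mmp10, Mmp8, Mmp27, Mmp20 and Mmp7; Mmp1b was not analysed here. Promoters of several genes of this cluster are known in other species to bind AP-1, the dimer of Fos and Jun proteins, at TGAGTCA or TGACTCA. The pattern searched here was the looser TGANTCA, where N is any base. The stretches from 120 to 31 bases before the start of 6 of these genes, from RefSeq's GRCr8 promoter table, are shown because they place that pattern (capitals) beside the read counts that follow. Mmp8 is shown as a gene of the cluster without it. All lie on the plus strand.
Mmp13, chr8:12782709-12782798: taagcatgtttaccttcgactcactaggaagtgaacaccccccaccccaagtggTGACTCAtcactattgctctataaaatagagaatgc
Mmp3, chr8:12925161-12925250: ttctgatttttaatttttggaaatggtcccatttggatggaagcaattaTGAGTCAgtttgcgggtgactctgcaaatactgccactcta
Mmp10, chr8:12974587-12974676: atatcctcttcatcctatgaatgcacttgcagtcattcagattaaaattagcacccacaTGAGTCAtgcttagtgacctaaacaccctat
Mmp1, chr8:12943333-12943422: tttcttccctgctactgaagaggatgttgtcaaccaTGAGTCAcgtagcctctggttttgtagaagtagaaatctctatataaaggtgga
Mmp12, chr8:12866532-12866621: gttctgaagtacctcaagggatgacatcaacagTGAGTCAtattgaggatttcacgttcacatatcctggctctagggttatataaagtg
Mmp7, chr8:13132923-13133012: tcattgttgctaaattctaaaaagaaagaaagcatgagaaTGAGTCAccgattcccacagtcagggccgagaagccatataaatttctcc
Mmp8, chr8:13008770-13008859: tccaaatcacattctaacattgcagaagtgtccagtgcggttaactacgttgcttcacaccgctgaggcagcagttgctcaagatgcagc

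In the values that follow, the numerator library's reads stand first. Mmp10 (stromelysin-2) had 34181 and 118 reads and was 284-fold higher, with an interval of 237 to 344. Mmp13 (collagenase-3, which cuts fibrillar collagen) had 4678 and 27 reads, 170-fold higher (interval 117 to 258). Mmp3 (stromelysin-1, which cuts proteoglycans and fibronectin and activates other MMPs) had 106873 and 911 reads, 115-fold higher (interval 108 to 123). All 3 genes were thus high in the numerator library and low, though not absent, in the denominator library. Mmp3 and Mmp10 are close paralogs, and reads of 36 bases may be shared between them where they match.

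The other genes of the cluster had few reads in either library. Mmp1, the interstitial collagenase, had 26 and 0 reads. A floor of 3 reads for the unread library puts it 8.51-fold higher, and its counting interval starts at 6.44-fold. Its mean was below 20, so it is not among the 41. Mmp12 (macrophage elastase) had 8 and 7 reads, Mmp20 (enamelysin) 1 and 4, and Mmp7 (matrilysin) 0 and 5. Mmp8 (neutrophil collagenase) and Mmp27 were listed at 0. Differences in Mmp12, Mmp20 and Mmp7 were not detectable at this depth, since their counting intervals all include a ratio of 1.

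The pattern TGANTCA, which reads alike on both strands, was present in the promoters of 7 of 15 MMP genes with a promoter in the table. The promoters run from 250 bases before to 50 bases after the start, and 7.33% of 33469 promoters of this length held the pattern. The 7 were Mmp1, Mmp3, Mmp7, Mmp10, Mmp12, Mmp13 and Mmp20, all of the chromosome 8 cluster. Mmp2, Mmp9, Mmp14, Mmp16, Mmp17 and Mmp19 had no promoter there and were not searched, so the pattern may occur outside the cluster too. The only match of Mmp20 was TGAATCA, which fits the looser pattern alone. Mmp1 held 2 matches, TGAATCA and TGAGTCA, of which the nearer to the start is placed below. The first base of the match lay 71 bases before the start in Mmp3, 61 in Mmp10 and 66 in Mmp13. It lay 84 bases before the start in Mmp1, 87 in Mmp12, 80 in Mmp7 and 96 in Mmp20. The pattern was thus present both in the 3 genes that were over 100-fold higher and in 3 genes with under 10 reads in each library. None of 4 TIMP and none of 13 ADAMTS or ADAMTSL promoters held it, and 1 of 10 ADAM promoters did (Adam19). Sequences other than TGANTCA were not searched for, so a promoter without it may still bind AP-1.

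**Figure D3:**
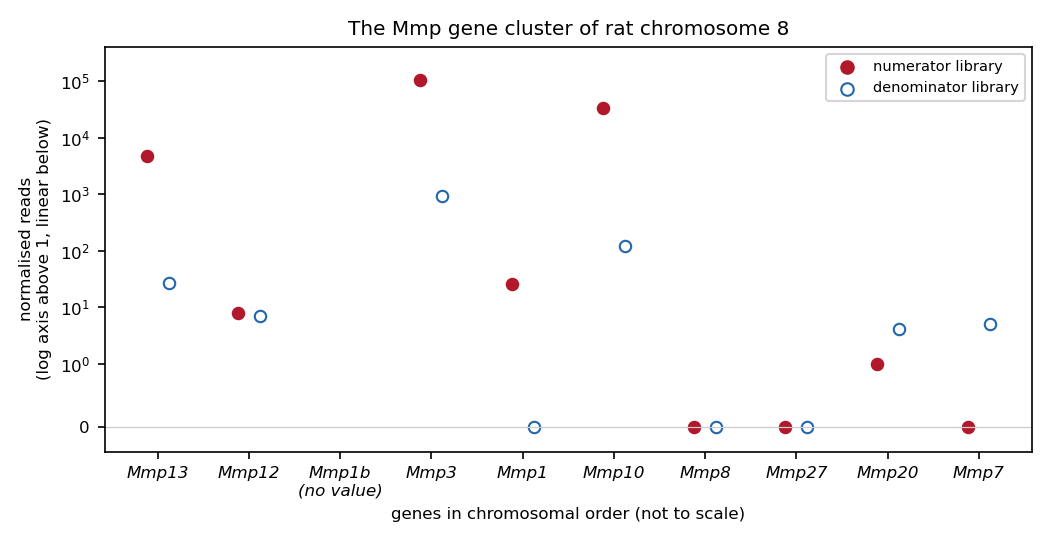
Normalised reads of the Mmp genes of rat chromosome 8 in chromosomal order (not to scale), in the numerator library (filled) and the denominator library (open); the axis is logarithmic above 1 and linear below. Mmp13, Mmp3 and Mmp10 stand far above their neighbours in the numerator library, and Mmp8 and Mmp27 lie at 0 in both.

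Genes of the gelatinases, which cut denatured collagen and basement membrane collagen, were lower in the numerator library. Mmp2 (gelatinase A) had 7595 and 27084 reads, 3.63-fold lower (interval 3.54 to 3.73). Mmp9 (gelatinase B) had 10 and 149 reads, 15.2-fold lower (interval 8.02 to 32.3). Mmp9 is known in leukocytes, whose markers differed both ways. Of 4 macrophage markers compared, Csf1r (22 and 270 reads) and Lyz2 (5 and 72) were lower, Cd68 (271 and 54 reads) was 4.93-fold higher and Cd14 (1371 and 1979) was within the limit. The list of 7 summed to 1672 and 2390 reads, with Adgre1 listed at 0 and Itgam at 0 and 15 reads. All 3 endothelial markers compared were lower, and the list of 5 summed to 47 and 2465 reads, with Kdr listed at 0. The neutrophil markers had 9 and 5 reads in all. The part of these cells in the Mmp9 difference was not tested.

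The membrane-anchored MMPs did not move as 1 group. Mmp16 (MT3-MMP) had 5632 and 317 reads, 17.4-fold higher (interval 15.6 to 19.6). Mmp17 (MT4-MMP, held by a lipid anchor) had 777 and 182 reads, 4.19-fold higher (interval 3.56 to 4.95). Mmp14 (MT1-MMP, the cell surface activator of pro-MMP2) had 48348 and 49388 reads, a 1.04-fold difference with an interval of 1.03 to 1.05. Mmp14 was thus nearly level between libraries that differed 3.63-fold in Mmp2. Mmp24 (MT5-MMP) had 58 and 28 reads; its fold was 2.03 (interval 1.27 to 3.32), but with the pseudocount its log2 ratio fell just below the 2-fold limit. Mmp15 (MT2-MMP) had 37 and 33 reads, with an interval of 0.67 to 1.82 that includes 1.

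The other MMP genes compared had more reads in the denominator library, 2 of 4 beyond 2-fold. Mmp23 had 5887 and 25894 reads, 4.48-fold lower in the numerator library (interval 4.35 to 4.61). Mmp11 (stromelysin-3, a stromal enzyme of remodelling tissue) had 1292 and 3896 reads, 3.07-fold lower (interval 2.88 to 3.27). Mmp28 (epilysin) had 798 and 1313 reads, 1.68-fold lower, and Mmp19 had 27973 and 29963 reads, 1.09-fold lower, both within the limit. Mmp21 was listed at 0.

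The total of the MMP class turned on Mmp3. All MMP genes together had 241979 and 140583 normalised reads, 1.72-fold higher. Without Mmp3 the totals were 136067 and 139664, or 1.03-fold lower.

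Of the inhibitors, Timp1 and Timp3 were higher and Timp4 lower. Timp1, a secreted inhibitor inducible by growth factors and cytokines, had 127209 and 41183 reads, 3.03-fold higher (interval 3.00 to 3.07). Timp3, which binds to the matrix and also blocks ADAM17 and aggrecan-cutting ADAMTS enzymes, had 34426 and 10494 reads, 3.22-fold higher (interval 3.15 to 3.29). Timp2, which takes part in pro-MMP2 activation by MMP14, had 124438 and 90292 reads, 1.35-fold higher and within the limit. Timp4 had 27 and 192 reads, 7.24-fold lower (interval 4.82 to 11.3).

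Timp1, Timp3 and Timp4 overlap the synapsin genes Syn1, Syn3 and Syn2 in the GRCr8 annotation, and the sources used here do not say if reads were counted by strand. Syn1 had 575 and 26 reads, Syn3 had 9 and 8, and Syn2 had 4 and 1. The part of these overlaps in the Timp1, Timp3 and Timp4 differences was not tested. Timp2 overlaps Cep295nl (204 and 95 reads) in the same annotation, Mmp11 overlaps Chchd10 (65 and 21 reads) and Adamtsl3 overlaps Saxo2 (20 and 19 reads).

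ADAM genes spread least of the 3 protease classes. Adam23, a membrane protein without protease activity that binds other cell surface proteins, had 13439 and 5075 reads, 2.60-fold higher (interval 2.52 to 2.69). Adam15 (metargidin) had 20049 and 9582 reads, a log2 ratio of 1.04, just past the limit; the authors' deposited table gives 0.93 on the shrunken log2 scale. Of the 9 ADAM genes compared, 2 were thus higher (13.9% over all genes) and 0 lower (12.7% over all genes). Either way, 22.2% of them passed 2-fold, near the 26.7% over all genes.

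The main sheddases stayed within 2-fold. Adam10, which cuts Notch receptors and cadherins, had 19829 and 10364 reads, 1.88-fold higher (interval 1.83 to 1.92). Adam17 (TACE, which releases TNF and several EGF receptor ligands) had 9499 and 6986 reads, 1.34-fold higher (interval 1.29 to 1.38). Adam19 (meltrin beta) had 115462 and 79185 reads, 1.43-fold higher. Adam9 (meltrin gamma) ran the other way, with 18624 and 35104 reads, 1.92-fold lower (interval 1.89 to 1.95). Of these sheddases, 3 thus had more reads in the numerator library and 1 fewer, and the spread between cultures is unknown.

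ADAM genes known chiefly from testis and sperm of rodents had few reads. Adam1a had 51 and 89 reads, Adam4 had 27 and 15, and Adam4l1 had 24 and 23. Adam4 and Adam4l1 are neighbouring relatives that may share reads, and both overlap Cox16 in the GRCr8 annotation, so their values are uncertain. Below the minimum, Adam11, which like Adam23 lacks protease activity, had 2 and 24 reads (12.2-fold lower, interval 3.03 to 107). Adam32 had 4 and 9 reads, Adam30 had 5 and 0, Adam6 had 2 and 0, and Adam28 had 1 and 0. Adam2, Adam3a, Adam5, Adam7, Adam26a and Adam34 were listed at 0.

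ADAMTS enzymes that cut aggrecan and versican, the hyalectanases, differed in both directions. Adamts1 had 399520 and 13051 reads, 30.1-fold higher (interval 29.5 to 30.6). Adamts9 had 3375 and 469 reads, 7.07-fold higher (interval 6.41 to 7.80). Adamts15 had 253 and 41 reads, 6.06-fold higher (interval 4.34 to 8.65). The aggrecanases Adamts4 and Adamts5 did not share this direction. Adamts4 had 616 and 1737 reads, 2.87-fold lower (interval 2.62 to 3.15), and Adamts5 had 1651 and 2392 reads, 1.47-fold lower and within the limit. The value of Adamts4 is uncertain, since reads of overlapping genes cannot be told apart.

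The procollagen N-propeptidases, which trim the amino ends of fibrillar procollagens, were also split. Adamts14 had 899 and 2863 reads, 3.24-fold lower (interval 3.01 to 3.50). Adamts2 had 13612 and 10500 reads, 1.27-fold higher, and Adamts3 had 28 and 19 reads with an interval of 0.78 to 2.74. Only Adamts14 of the 3 passed the limit.

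The remaining ADAMTS genes compared all had fewer reads in the numerator library. Adamts10, an enzyme of fibrillin microfibrils, had 4639 and 20534 reads, 4.51-fold lower (interval 4.37 to 4.65). Adamts12, which cuts cartilage oligomeric matrix protein, had 10116 and 22881 reads, 2.30-fold lower (interval 2.25 to 2.36). Adamts7, with the same known substrate, had 4381 and 5559 reads, 1.29-fold lower and within the limit. Adamts18 and Adamts19 were listed at 0.

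Of the 3 ADAMTS-like genes, which encode matrix proteins without protease activity, 1 was lower and 2 stayed within the limit. Adamtsl3 had 1707 and 3464 reads, 2.07-fold lower (interval 1.95 to 2.19), just past the limit; the authors' deposited table gives -0.93 on the shrunken log2 scale. Adamtsl4 (14962 and 13904 reads) and Adamtsl5 (2434 and 2874 reads) were within 2-fold, at log2 ratios of 0.08 and -0.27. The total of this class turned on Adamts1. ADAMTS and ADAMTSL genes together had 454074 and 101198 normalised reads, 4.49-fold higher, but 58146 and 88028 without Adamts1, 1.51-fold lower.

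Genes that activate or restrain metalloproteinases were taken from a separate list of 11, of which 10 could be compared. Of these, 1 was higher and 4 lower, with a median log2 ratio of -0.92. Beside this and the lists below, 13.9% of all genes compared were higher and 12.7% lower. A2m, alpha-2-macroglobulin, an inhibitor that traps proteases of all classes, had 3453 and 1273403 reads, 376-fold lower (interval 363 to 388). Plau (urokinase, which makes plasmin, an activator of several pro-MMPs) had 2563 and 18557 reads, 7.37-fold lower (interval 7.07 to 7.69). Pcsk5, a furin-like convertase, had 9716 and 1509 reads, 6.32-fold higher (interval 5.99 to 6.68). Other genes of this list were named after their values were seen. Pcsk6, another convertase, was 3.56-fold lower and Bsg (basigin, an inducer of MMPs) 2.71-fold lower. Reck, a membrane-anchored MMP inhibitor, had 11698 and 21120 reads, 1.84-fold lower and within the limit. The libraries thus differed in inhibitors in both directions, with more Timp1 and Timp3 reads and fewer A2m reads in the numerator library.

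Of 5 proteoglycan genes compared, all known substrates or partners of these enzymes, 3 were higher and 1 lower. Acan (aggrecan) had 1961 and 0 reads. With the unread library set to the floor this is 642-fold higher, and the counting interval starts at 522-fold. Lum (lumican) had 101 and 24 reads, 4.13-fold higher (interval 2.63 to 6.75). Dcn (decorin) had 219 and 782, 3.64-fold lower (interval 3.13 to 4.24). Vcan (versican), named after its value was seen, had 194955 and 84277 reads, 2.27-fold higher. Acan, Vcan, Lum, Adamts1, Adamts9 and Adamts15 thus had more reads in the numerator library, whereas Dcn, Adamts4 and Adamts5 had fewer.

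Of 12 AP-1, ETS and Runx2 transcription factor genes, 2 were higher and 2 lower, with a median of 0.22. The shares over all genes were 13.9% and 12.7%. Fosb had 18715 and 8139 reads, 2.26-fold higher (interval 2.20 to 2.32). Ets2 had 1563 and 3583, 2.33-fold lower, and Fosl1 had 2090 and 4468, 2.18-fold lower. Junb, named after its value was seen, was 2.13-fold higher. Whether these factors had a part in the Mmp3, Mmp10 and Mmp13 differences was not tested. Transcript counts do not show the activity of these factors, which was not measured.

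None of the 3 other metzincin genes compared and none of 7 sheddase partner genes passed 2-fold. Over all genes compared, 26.7% lay beyond 2-fold either way, so lists this short do not set these genes apart. Of the metzincins, Pappa (pregnancy-associated plasma protein A, which cuts IGF-binding proteins) had 244 and 419 reads, Bmp1, the procollagen C-proteinase, 14461 and 19900, and Tll1 11066 and 12079. Rhbdf1 and Rhbdf2, the iRhoms that carry ADAM17 to the cell surface, had 1871 and 3500 reads and 1152 and 1715 reads. Tspan14, a tetraspanin partner of ADAM10, had 3638 and 2580 reads.

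**Figure D4:**
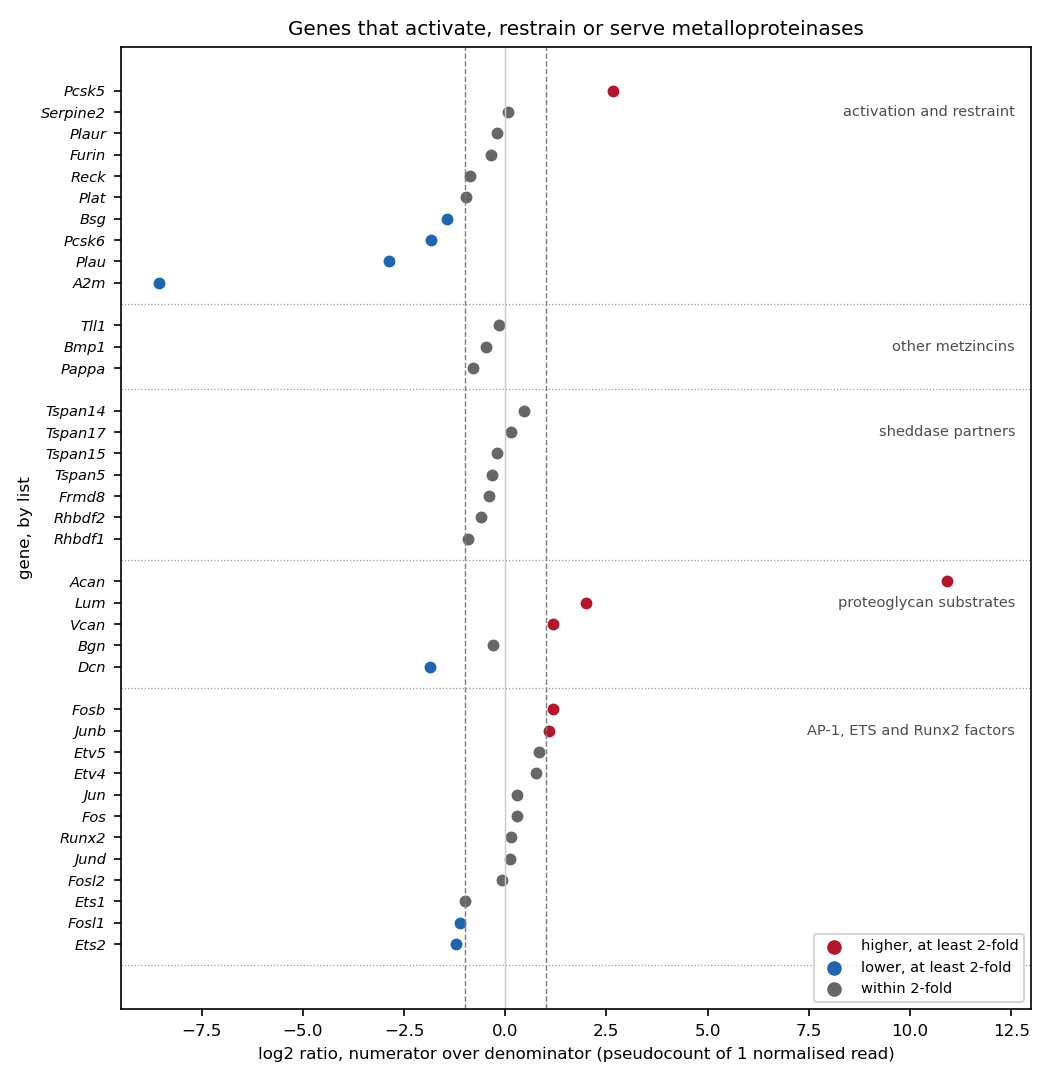
Log2 ratio (pseudocount of 1 normalised read) of genes of the 5 related lists with a mean of at least 20; dashed lines mark 2-fold. A2m lies farthest to the left and Acan, with 0 reads in the denominator library, farthest to the right, while the metzincin and sheddase partner genes lie within 2-fold.

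The authors' deposited table gives shrunken fold changes for the same genes. In the authors' deposited table the log2 fold changes of the 50 genes above 0 run from -1.82 (Mmp9) to 3.37 (Mmp3), and that of Mmp3 is the highest of all 13221 genes with a value. This rank holds on the shrunken scale only. By the log2 ratio of the recovered reads, Mmp10 (8.14), Mmp13 (7.36) and Acan (10.9) lay above Mmp3 (6.85). The smallest p-value among the 50 in the authors' deposited table is 0.00600 and the smallest adjusted p-value is 0.999, so none passes a false discovery threshold there.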

How the data were processed

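Per the labels' protocols, DNase-treated total RNA was made into PCR-enriched libraries and read as single 36 bp reads on a HiSeq2500. The submitters' processing notes name featureCounts, TopHat, SAMtools, FastQC and, as the authors' model, DESeq2, and the builds rn4 and rn5. The sources used here do not give versions, settings or strand. The deposited table holds, per the file headers, a mean signal (read counts divided by size factors and averaged over both libraries), a shrunken log2 fold change with its standard error, a score (their quotient) and the authors' p-values.

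With Python 3.11.15 and SciPy 1.17.1, each mean was solved as whole reads of 2 libraries with size factors of 1.01 and 0.991. Of 13221 genes above 0, 9307 had 1 possible pair. For the rest, each pair was put through a shrunken negative binomial fit and the one meeting the deposited standard error was kept, or, for very small fold changes, the pair nearest in ratio. Among the 22 metalloproteinase and inhibitor genes with several pairs, the chosen pair missed the standard error by at most 1.03e-06. The next best pair, where the fit gave one, missed it by at least 0.0208. For genes of the related and marker lists, such as A2m, these misses are not given here. The recovery was checked on simulated data. Intervals are Clopper-Pearson intervals of the share of reads; reads are not independent molecules.

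The genes and lists were chosen with earlier results of these data known. Named were all MMP and TIMP genes above the minimum, the 6 highest and 6 lowest ratios and 3 highest means among ADAM and among ADAMTS genes, genes read in 1 library only with a mean of at least 5, and the 3 most different of each related list; others are named where few. Protein sequences were not used here. The 61 symbols all matched RefSeq's GRCr8 annotation, and 42 had a promoter in its table. For 1 gene of the list on activation and restraint and 1 overlapping gene, values are not reported here.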

Additional observations from a re-analysis of the deposited data

How the results depend on the processing

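Of the 41 genes compared, 12 higher and 10 lower at 2-fold became 8 and 4 at 4-fold. With only genes that have 1 possible pair of read counts, 19 genes remained to compare, of which 4 were higher and 6 lower; this leaves out, among others, Mmp2, Mmp3, Mmp10, Adamts1, Timp1 and Timp3, whose reads are high, and the TIMP median was then Timp4 alone, at -2.81. Under the other alternatives (a pseudocount of 0.5 or 5, no minimum or a minimum of 100, scaling by total reads, the deposited fold change, and leaving out chromosomes 4 and 7) the counts ran from 10 to 13 higher and from 8 to 11 lower. Mmp24 passed the limit with a pseudocount of 0.5 and with scaling by total reads. Calls were lost for Adam15 (0.93) and Adamtsl3 (-0.93) under the deposited fold change, and Mmp9 fell below a minimum of 100. The MMP median turned from 0.04 to -0.06 with a minimum of 100. By the deposited fold change, 26 of the 41 gene values lay outside their counting intervals; that fold change is shrunken towards 0. No paired analysis was possible because each group has 1 library, and for the same reason no library could be left out. Depth limits the genes with under 30 reads in each library, such as Mmp12, Mmp20, Mmp7, Adam4l1 and Adamts3.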
